A study of Homo sapiens with 12 samples.

Results

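The genes described here are the 7 transcription factors SNAI1, SNAI2, ZEB1, ZEB2, TWIST1, TWIST2 and PRRX1, which drive epithelial to mesenchymal transition (EMT), and 2 mesenchymal marker genes, VIM and FN1. They were chosen by name, with earlier results of these data known, and all 9 were present among the 15601 genes of the table that covers all 12 libraries. RNA was measured in SNU449, a human liver cancer cell line with mesenchymal-like features, and in SNU449-Axl-, its derivative made deficient in the receptor tyrosine kinase Axl by CRISPR/Cas9. Each line was examined as control cells and as cells made resistant to Regorafenib (Rego), a tyrosine kinase inhibitor, by stepwise exposure up to 2 × IC50. These 4 groups hold 3 libraries each, which the study calls technical triplicates, so all p-values cover the spread between libraries and not between independent derivations of resistant or Axl-deficient cells. No repeated selection of a resistant line is described, so effects of Rego and of the selected population cannot be told apart. Only 1 Axl-deficient derivative was used, so loss of Axl and other features of that derivative cannot be told apart either.

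EMT is the loss of cell-cell junctions and polarity in favour of a motile, matrix-producing state. SNAI and ZEB proteins are zinc finger repressors that bind E-boxes in promoters of epithelial genes such as CDH1, TWIST proteins are basic helix-loop-helix factors, and PRRX1 is a homeodomain factor of mesenchymal tissue. VIM encodes vimentin, the intermediate filament protein of mesenchymal cells, and FN1 encodes fibronectin, a glycoprotein of the extracellular matrix that cells bind through integrins. In liver cancer these factors have been studied mainly in relation to invasion and drug tolerance.

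The deposited library values are whole numbers on a variance-stabilised, batch-corrected scale, in which low counts are compressed towards a floor (the lowest value in the table was 12). Differences below are on the scale of log2(library value + 1), they are not ratios of counts, and they understate changes of genes with few reads. A gene was called when its limma adjusted p over all 15601 genes was below 0.05. The deposited mean normalized counts of the genes in a table summed to between 4156995 and 4914889, and the total count of each library is unknown. AXL, the targeted gene, had values of 727, 941 and 715 in SNU449 control cells and 1237, 815 and 1271 in Rego-resistant SNU449. It had 35, 53 and 33 in SNU449-Axl- control cells and 50, 38 and 52 in Rego-resistant SNU449-Axl-, so the 2 backgrounds did not overlap. Where the deletion lies relative to the 3′ end that is read is not given in the sources used here. Of genes used as cell type markers, 8 of 15 for hepatocytes, 5 of 7 for fibroblasts or stellate cells, none of 5 for endothelium and 3 of 6 for leukocytes were in the table, and ALB, the defining hepatocyte gene, was not among them. All samples are cultures of SNU449 or its derivative, so these markers describe genes of the cultured cells. In bulk RNA, fewer cells expressing a gene and less of its RNA per cell cannot be told apart.

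The 9 genes spanned nearly the whole range of detection. QuantSeq reads the 3′ end of each transcript, so a mean count does not scale with transcript length as in full-length RNA-seq, although 3′ ends can differ in how well they are captured. VIM had a mean normalized count of 18945 by the authors' own averaging, which ranked 11 among all genes, and FN1 had 1597. ZEB1 (158), TWIST1 (141), ZEB2 (86.8) and TWIST2 (53.4) lay in the middle of the range. SNAI2 (21.7), SNAI1 (11.9) and PRRX1 (3.73) were near the lower limit, where few reads lie behind each value. In the plot of group mean counts, VIM stands more than 3 units on the log10 axis above SNAI1 and PRRX1 in SNU449 control cells.

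**Figure D1:**
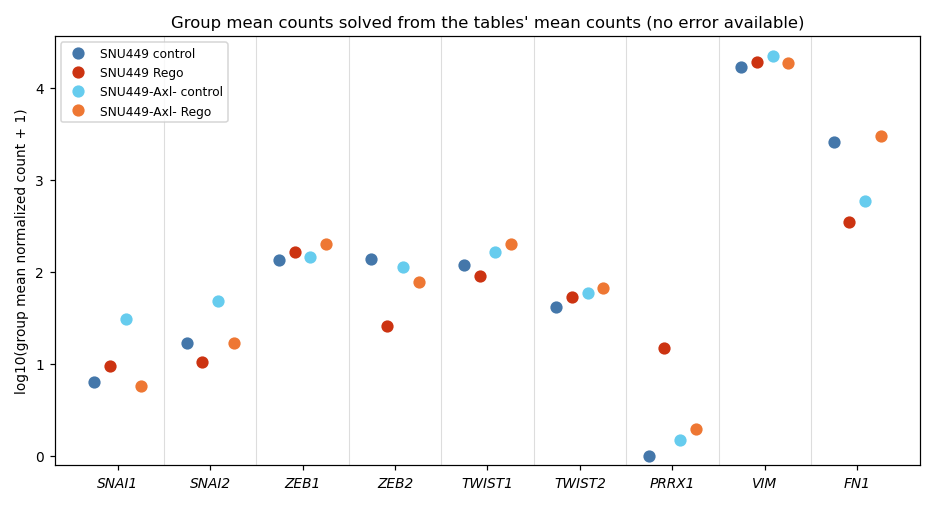
Group mean normalized counts of the 9 genes on a log10(count + 1) axis, solved from the mean counts that the authors deposited for tables with different sets of groups, without an error. Colours give the 4 groups: FN1 separates into 2 high and 2 low groups, ZEB2 is lowest in Rego-resistant SNU449 (24.6), and PRRX1 is above 1 count in Rego-resistant SNU449 alone (13.8).

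FN1 was the gene that differed most among the 9. Its library values were 2491, 1437 and 2923 in SNU449 control cells and 336, 453 and 650 in Rego-resistant SNU449. In SNU449-Axl- the values were 559, 377 and 463 in control cells and 2543, 4850 and 1351 in Rego-resistant cells. FN1 was thus high in SNU449 control cells and in Rego-resistant SNU449-Axl-, low in the other two groups, and no library of a high group overlapped with one of a low group. Levels spread most within Rego-resistant SNU449-Axl-, with 11.32 ± 0.92 (SD, n = 3), against 11.10 ± 0.54 in SNU449 control cells, 8.86 ± 0.48 in Rego-resistant SNU449 and 8.85 ± 0.28 in SNU449-Axl- control cells.

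With Rego resistance FN1 fell by 2.24 in SNU449 (95% interval -3.00 to -1.47, limma adjusted p = 0.000686) and rose by 2.47 in SNU449-Axl- (1.70 to 3.23, limma adjusted p = 0.000544). With loss of Axl it fell by 2.25 in control cells (limma adjusted p = 0.000867) and rose by 2.46 in resistant cells (limma adjusted p = 0.00049). The Rego effect differed between backgrounds by -4.71 (standard error 0.52, limma adjusted p = 3.44e-05). Between the 2 high groups the difference was 0.22, with an interval from -0.54 to 0.99, and between the 2 low groups it was 0.0067, with an interval from -0.76 to 0.77. These 5 calls held in each of the 12 fits that left out 1 library and under every other alternative, and the highest limma adjusted p among them was 0.0141 (loss of Axl in control cells). In the table made from SNU449 and SNU449-Axl- control cells alone, which was normalised separately, FN1 had 2393, 2115 and 2824 against 455, 515 and 385.

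Hepatocyte markers moved with some of these groups. In SNU449-Axl-, 3 of the 8 markers in the table (FGA, FGB and FGG, the fibrinogen chains) were higher with Rego resistance, and 4 of 8 were higher in Rego-resistant SNU449-Axl- than in Rego-resistant SNU449. By limma none of the 8 was called with Rego resistance in SNU449 (1 at an unadjusted p under 0.05, 1 called without the replicate block), and 2 were higher with loss of Axl in control cells. In this order the calls were 37.5%, 50%, 0% and 25% of the 8, against 4.35%, 4.37%, 7.81% and 7.45% of all genes. Without 1 library the counts of 3, 4 and 2 ranged from 1 to 3, 2 to 4 and 0 to 2. The first was lowest without SNU449-Axl- control library 1 or 2 or resistant library 2, the second without any resistant SNU449 library or resistant SNU449-Axl- library 2 or 3, and the third without control library 2 of either line or SNU449-Axl- control library 3. With Rego in SNU449-Axl- the call of FGB held in all 12 of these fits, that of FGG was lost in 3 and that of FGA in 9. FGB had 189, 547 and 294 in Rego-resistant SNU449-Axl- and between 16 and 72 in the other libraries. Only 2 of the 8 markers had a mean normalized count of at least 50, so values near the floor make up part of their sums. The summed values of the 8 markers ranged from 480 to 605 in SNU449 control cells, 646 to 814 in Rego-resistant SNU449, 601 to 759 in SNU449-Axl- control cells and 897 to 1337 in Rego-resistant SNU449-Axl-. The highest FGB and FN1 values came from the same library of Rego-resistant SNU449-Axl-, whereas FGB was low in SNU449 control cells, where FN1 was high. The part of these markers in the FN1 result was not tested.

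FN1 (ENSG00000115414.21) lies on chromosome 2 in build GRCh38, at chr2:215360440-215436073 on the minus strand. Its sequence before the start is shown because FN1 gave the largest difference of the set and because several of the factors above are known for binding E-boxes. The 245 bases before the gene, taken from the promoter table of RefSeq (GRCh38.p14, chr2:215436074-215436318, minus strand, 5′ to 3′), read as follows, with the motifs found in capitals.
FN1: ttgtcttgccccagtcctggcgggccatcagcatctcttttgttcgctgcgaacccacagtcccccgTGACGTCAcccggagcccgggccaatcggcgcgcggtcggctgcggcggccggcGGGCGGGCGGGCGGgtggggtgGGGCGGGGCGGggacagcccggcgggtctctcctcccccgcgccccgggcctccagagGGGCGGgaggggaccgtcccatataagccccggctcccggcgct
Capitals mark 1 cAMP response element (TGACGTCA), which begins 183 bases before the RefSeq start, and 6 GC boxes (GGGCGG, or CCGCCC on the other strand), some of which overlap, which begin 129 to 49 bases before it. No E-box (CANNTG) and no E2-box (CACCTG or CAGGTG, a subset of the E-boxes) was found in the 250 bases searched. Among 35116 promoter windows of the same length, 1.65% held the cAMP response element, 42.6% a GC box (2.22% held at least as many as FN1), 61.8% an E-box and 17.5% an E2-box. The absence of a motif describes the letters of this window only. Windows of 6 of the 9 genes were searched: 4 of the 7 windows of ZEB1 held an E-box, as did that of ZEB2, and those of TWIST2, PRRX1 and VIM held none.

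**Figure D2:**
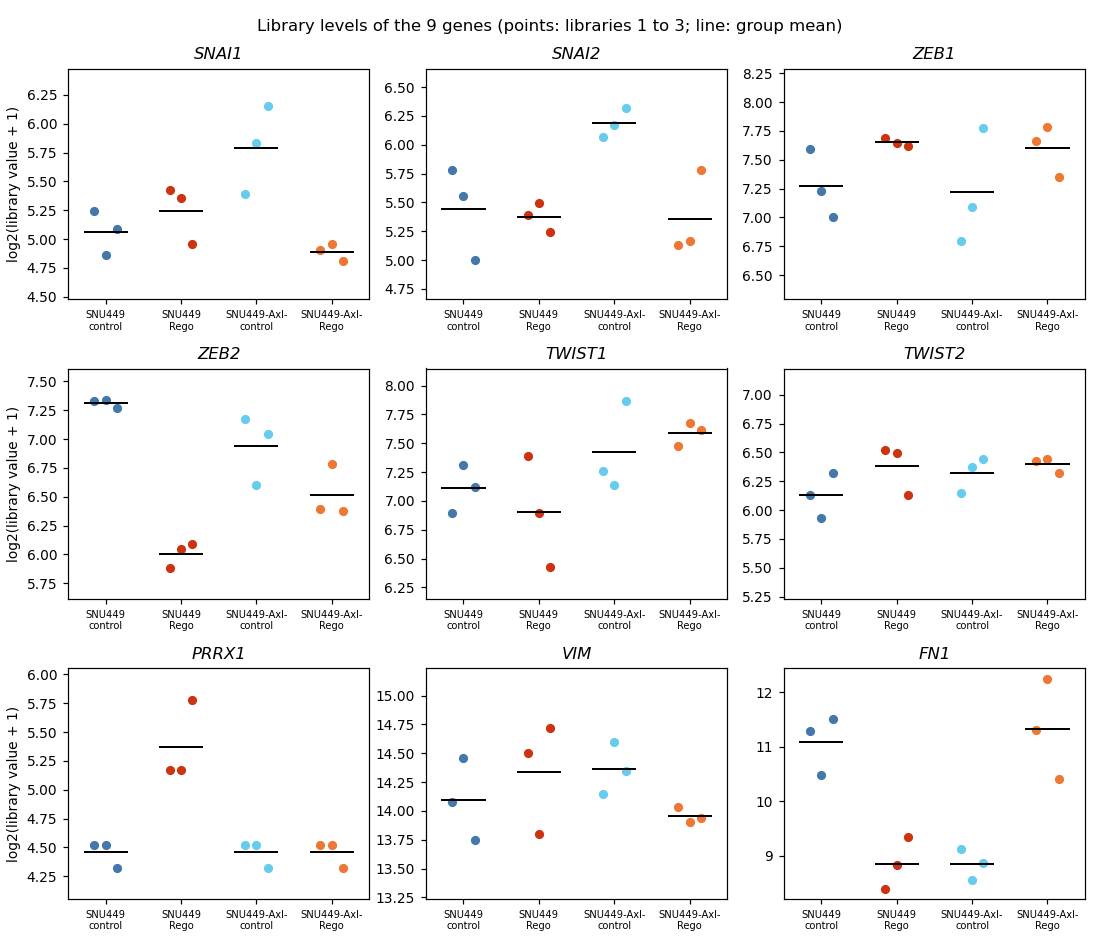
Library levels, log2(library value + 1), of the 9 genes in the 4 groups, with points for libraries 1 to 3 and a line for the group mean; the vertical axes differ between panels. FN1 forms 2 high and 2 low groups, ZEB2 is lowest in Rego-resistant SNU449, PRRX1 is raised in Rego-resistant SNU449, and SNAI1 and SNAI2 have their highest means in SNU449-Axl- control cells.

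Among the EMT transcription factors, ZEB2 had the lowest adjusted p. It had 160, 161 and 153 in SNU449 control cells and 58, 65 and 67 in Rego-resistant SNU449. SNU449-Axl- cells had 143, 96 and 131 as control cells and 83, 109 and 82 when resistant. Values of SNU449 control cells were above those of every other group, Rego-resistant SNU449 was below every other group, and the 2 SNU449-Axl- groups overlapped. ZEB2 (ENSG00000169554.23, chr2:144364364-144521057, minus strand) fell by 1.31 with Rego resistance in SNU449 (interval -1.73 to -0.88, limma adjusted p = 0.000453), and this call held without any single library. In SNU449-Axl- the difference with Rego was -0.42 (interval -0.85 to 0.0036, limma adjusted p = 0.273). The difference between these effects, -0.89, missed the threshold (limma adjusted p = 0.079) and passed it without the replicate block (limma adjusted p = 0.0243) and with centring on the spike-in RNAs added to each library as a reference (limma adjusted p = 0.0393). Ordered by mean level, ZEB2 was highest in SNU449 control cells (7.31), followed by SNU449-Axl- control cells (6.94), then Rego-resistant SNU449-Axl- (6.52), and lowest in Rego-resistant SNU449 (6.0), and no neighbouring pair in this order passed the test. Rego-resistant SNU449-Axl- was lower than SNU449 control cells by -0.80 (limma adjusted p = 0.0206), a call lost when 4 of the 12 libraries were left out one at a time (SNU449 control 1 or 2, resistant SNU449-Axl- 1 or 3) and with that centring (-0.55, limma adjusted p = 0.0893). Rego-resistant SNU449 was lower than SNU449-Axl- control cells by -0.93 (limma adjusted p = 0.0121), a call lost without 3 of the 12 libraries (SNU449-Axl- control 1 or 3, resistant SNU449 1). Between the resistant groups ZEB2 differed by 0.51 (interval 0.09 to 0.94, limma adjusted p = 0.178), and by 0.82 with the spike-in centring (limma adjusted p = 0.0158).

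ZEB1 (ENSG00000148516.23, chr10:31318495-31529814, plus strand), the paralog of ZEB2, was called in none of the comparisons. It had 192, 149 and 127 in SNU449 control cells and 206, 199 and 196 in Rego-resistant SNU449, which did not overlap. SNU449-Axl- cells had 110, 135 and 218 as control cells and 202, 220 and 162 when resistant, which overlapped. The differences with Rego were 0.38 in SNU449 (interval -0.12 to 0.88, limma adjusted p = 0.393) and 0.38 in SNU449-Axl- (interval -0.12 to 0.89, limma adjusted p = 0.428), and both intervals reach from below 0 to an increase. ZEB1-AS1, the RNA of the opposite strand at the ZEB1 locus, ranged from 30 to 45 over the 12 libraries and was not called. The counting is not stated to use strand, so reads of the 2 genes may not be separated.

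The SNAI genes had their highest means in SNU449-Axl- control cells. SNAI1, encoding Snail, had 41, 56 and 70 there, against 37, 28 and 33 in SNU449 control cells, 42, 40 and 30 in Rego-resistant SNU449 and 29, 30 and 27 in Rego-resistant SNU449-Axl-. SNU449-Axl- control cells therefore overlapped with Rego-resistant SNU449 and not with the other 2 groups. SNAI1 (ENSG00000124216.4, chr20:49982980-49988886, plus strand) rose by 0.73 with loss of Axl in control cells (standard error 0.21, limma adjusted p = 0.0459) and fell by 0.90 with Rego resistance in SNU449-Axl- (limma adjusted p = 0.0217). In SNU449 its difference with Rego was 0.18 (interval -0.27 to 0.63, limma adjusted p = 0.687), and the Rego effect differed between backgrounds by 1.08 (limma adjusted p = 0.0406). These calls were close to the threshold: of 12 fits that each left out 1 library, the call was lost in 10 for loss of Axl (kept without resistant SNU449 library 3 or SNU449-Axl- control library 1), in 5 for Rego resistance in SNU449-Axl- (SNU449-Axl- control library 2 or 3 or any resistant one) and in 9 for the difference between backgrounds (kept without SNU449 control library 1, resistant SNU449 library 3 or SNU449-Axl- control library 1). The last was also lost with centring on the spike-in RNAs (limma adjusted p = 0.0768), and the first with upper-quartile scaling and in 2 other tables (limma adjusted p of 0.0506 to 0.106). The group mean normalized counts behind them were 5.29, 8.59, 29.4 and 4.76 in SNU449 control, Rego-resistant SNU449, SNU449-Axl- control and Rego-resistant SNU449-Axl- cells.

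SNAI2, encoding Slug, had 66, 71 and 79 in SNU449-Axl- control cells, above all 9 libraries of the other groups. SNU449 control cells had 54, 46 and 31, Rego-resistant SNU449 41, 44 and 37, and Rego-resistant SNU449-Axl- 34, 35 and 54. These 3 groups overlapped with each other. SNAI2 fell by 0.83 with Rego resistance in SNU449-Axl- (limma adjusted p = 0.0483), lost in 8 of 12 fits that left out 1 library (kept without SNU449 control library 1 or 3 or library 3 of either resistant group) and with centring on the spike-in RNAs (limma adjusted p = 0.0971) and in the other table over all 12 libraries (limma adjusted p = 0.0514). Rego-resistant SNU449 was lower than SNU449-Axl- control cells by -0.81 (limma adjusted p = 0.0463), lost in 9 of the 12 (kept without SNU449 control library 1 or 3 or resistant SNU449-Axl- library 3). The difference with loss of Axl in control cells, 0.74, missed the threshold (interval 0.26 to 1.22, limma adjusted p = 0.0575) and passed it without the replicate block (limma adjusted p = 0.0246) and with the spike-in centring (limma adjusted p = 0.029). Over the 12 libraries the levels of SNAI1 and SNAI2 had a Pearson r of 0.72, which is a description of 4 groups of technical triplicates.

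PRRX1 was near the floor in all but 1 group. It had 35, 35 and 54 in Rego-resistant SNU449. All 3 other groups had the same values, 22, 22 and 19. The mean normalized count was 13.8 in Rego-resistant SNU449 and between 0 and 0.97 in the others. Tables of 2 groups without Rego-resistant SNU449 did not list PRRX1 (ENSG00000116132.12, chr1:170662728-170739421, plus strand), so it was in the table through the one group where it was high, and its differences are given as a description with no test. The level was higher in Rego-resistant SNU449 than in each other group by 0.92, and the size of this difference depends on the floor. In the table of control and Rego-resistant SNU449 alone the values were 40, 39 and 32 against 54, 54 and 67, a difference of 0.64.

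TWIST1, TWIST2 and VIM were called in none of the comparisons with the fit used throughout. TWIST1 had 118, 158 and 138 in SNU449 control cells, 167, 118 and 85 in Rego-resistant SNU449, 152, 140 and 233 in SNU449-Axl- control cells and 177, 203 and 195 in Rego-resistant SNU449-Axl-. The 2 resistant groups did not overlap, with a difference of 0.68 (interval 0.16 to 1.20, limma adjusted p = 0.135), which passed the threshold with centring on the spike-in RNAs (0.99, limma adjusted p = 0.0107) and without library 1 of Rego-resistant SNU449 (1.01, limma adjusted p = 0.0428). TWIST2 ranged from 60 to 91 over the 12 libraries, and its differences in the 4 main comparisons lay between 0.02 and 0.25. The levels of TWIST1 and TWIST2, which encode closely related proteins, had a Pearson r of 0.39 over the 12 libraries. TWIST1 lies at chr7:19020991-19117636 on the minus strand (ENSG00000122691.13) and TWIST2 at chr2:238848032-238910534 on the plus strand (ENSG00000233608.4).

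VIM (ENSG00000026025.16, chr10:17228241-17237593, plus strand) had 17327, 22519 and 13759 in SNU449 control cells and 23174, 14237 and 27044 in Rego-resistant SNU449. SNU449-Axl- cells had 18125, 24761 and 20848 as control cells and 16754, 15360 and 15716 when resistant, with all 3 resistant libraries below all 3 control libraries. The differences with Rego were 0.24 in SNU449 (interval -0.26 to 0.75, limma adjusted p = 0.619) and -0.40 in SNU449-Axl- (interval -0.91 to 0.10, limma adjusted p = 0.402). Both intervals lie inside the sizes measured for FN1, -2.24 and 2.47. VIM-AS1, on the opposite strand at the VIM locus, ranged from 22 to 40 and was not called, nor was SNAI3-AS1 (18 to 40).

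**Figure D3:**
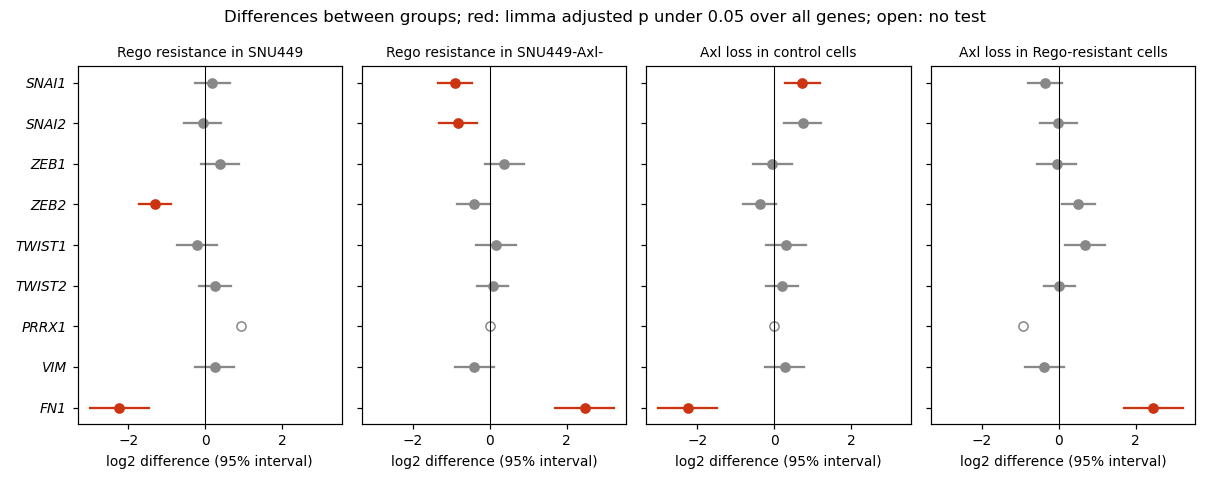
Differences of the 9 genes in the 4 main comparisons on the log2(library value + 1) scale, with 95% intervals from limma; red marks an adjusted p below 0.05 over all 15601 genes, and the open symbol of PRRX1 marks a difference given without a test. FN1 is called in all 4 panels with opposite signs between panels, and ZEB1, TWIST1, TWIST2 and VIM have no call in any panel.

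In the comparison of Rego-resistant with control SNU449, 2 of the 8 genes other than PRRX1 were called (ZEB2 and FN1, both lower), against 7.81% of all genes (4.31% higher, 3.5% lower). In SNU449-Axl- the comparison gave 3 (FN1 higher, SNAI1 and SNAI2 lower), against 4.35% (2.54% higher, 1.81% lower). Loss of Axl gave 2 in control cells (SNAI1 higher, FN1 lower), against 7.45% (4.03% higher, 3.43% lower), and 1 in resistant cells (FN1, higher), against 4.37% (2.44% higher, 1.93% lower). The comparison of Rego-resistant SNU449-Axl- with SNU449 control cells gave 1 (ZEB2, lower), against 7.11% (4.38% higher, 2.74% lower), and that of Rego-resistant SNU449 with SNU449-Axl- control cells gave 2 (SNAI2 and ZEB2, both lower), against 5.59% (2.68% higher, 2.91% lower). The difference of the Rego effect between backgrounds was called for 2 (SNAI1 and FN1), against 5.87% (2.95% with a positive and 2.92% with a negative difference). These comparisons share groups and are not independent. Centring each library on the spike-in RNAs shifted the median difference of all genes by -0.06, 0.13, 0.13 and 0.32 in the 4 main comparisons, and the share of calls that were higher went from 55.2% to 44%, from 58.4% to 81.3%, from 54% to 75.4% and from 55.9% to 96.4%. FN1 kept its calls and directions under this centring. In the 4 main comparisons 3, 4, 4 and 3 of the 8 genes had groups that did not overlap, against 27.9%, 29.1%, 27.9% and 28% of all genes in the order above, and in the fifth and sixth 2 each did, against 28.7% and 28.6%. The median difference of the 8 genes was 0.06, -0.16, 0.23 and -9e-04 in the same order, beside -1e-04, 0.0066, 0.0035 and 0.0139 over all genes.

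Other transcription factors linked to EMT were followed as a list of 30 genes, of which 24 were in the table. This and the other gene lists were drawn up with earlier results of these data known. A share of calls above that of all genes is therefore a description only. With Rego resistance 6 were called in SNU449 (2 higher, 4 lower) and 5 in SNU449-Axl- (1 higher, 4 lower, or 1 each way with centring on the spike-in RNAs). Loss of Axl gave 4 in control cells (3 higher, 1 lower, or 5 higher and none lower with that centring) and 2 in resistant cells (both lower, or 2 higher and none lower when libraries were centred on the spike-in RNAs). Before centring the calls were 25%, 20.8%, 16.7% and 8.33% of the 24, against 7.81%, 4.35%, 7.45% and 4.37% of all genes. Without 1 library the counts for loss of Axl ranged from 1 to 6 in control cells, lowest without SNU449-Axl- control library 2, and from 0 to 2 in resistant cells, with 0 without library 1 or 2 of either resistant group. ID3, an inhibitor of basic helix-loop-helix factors such as TWIST1, had the reverse of the FN1 pattern. It had 86, 114 and 153 in SNU449 control cells and 501, 411 and 283 in Rego-resistant SNU449, and 420, 519 and 324 in SNU449-Axl- control cells and 175, 130 and 225 when resistant. The groups did not overlap within either background. ID3 rose by 1.75 with Rego in SNU449 (limma adjusted p = 0.000445) and fell by 1.26 in SNU449-Axl- (limma adjusted p = 0.0118), with a difference of 3.01 between these effects (limma adjusted p = 0.000125). ID2, of the same family, fell by 1.66 in Rego-resistant SNU449 (limma adjusted p = 0.000315), as did RUNX2, an osteoblast factor, by 1.39 (limma adjusted p = 0.00311). The fall of ID3 in SNU449-Axl- was lost without SNU449-Axl- control library 2 or resistant library 1 or 2, and the 5 calls of the list in that comparison became 0, 0 and 1 in these fits, in a range of 0 to 6 over the 12. TCF3, which encodes the E proteins E12 and E47 that partner TWIST proteins, differed in its Rego effect between backgrounds by 1.49 (limma adjusted p = 0.0104), a call lost without SNU449-Axl- control library 2 (limma adjusted p = 0.0507).

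Of 50 other mesenchymal markers 43 were in the table. Rego resistance in SNU449 gave 14 calls (11 higher, 3 lower), with a median difference of 0.37 over the 43 genes. In SNU449-Axl- it gave 9 calls (1 higher, 8 lower) with a median of -0.19. Loss of Axl gave 12 calls in control cells (10 higher, 2 lower) with a median of 0.35, and 11 in resistant cells (3 higher, 8 lower) with a median of -0.09, which became 6 higher and 5 lower with a median of 0.21 when centred on the spike-in RNAs. Without that centring the calls were 32.6%, 20.9%, 27.9% and 25.6% of the 43, against 7.81%, 4.35%, 7.45% and 4.37% of all genes. Whether the list exceeds all genes was not tested. A mean normalized count of at least 50 was reached by 29 of the 43, and the others lay closer to the floor. The median difference over all genes lay between -1e-04 and 0.0139 in these comparisons. Over the fits that left out 1 library the calls ranged from 11 to 18 in the first comparison and from 4 to 12, 9 to 16 and 4 to 14 in the others. The lowest counts of the second and the fourth came without library 2 of Rego-resistant SNU449-Axl-.

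COL1A1, the alpha-1 chain of type I collagen, is another matrix gene, and where both it and FN1 were called the signs were opposite. It had 363, 223 and 44 in SNU449 control cells, 690, 361 and 878 in Rego-resistant SNU449, 498, 2102 and 2380 in SNU449-Axl- control cells and 194, 144 and 264 in Rego-resistant SNU449-Axl-. It was higher by 3.14 with loss of Axl in control cells (limma adjusted p = 0.00361) and fell by 2.79 with Rego in SNU449-Axl- (limma adjusted p = 0.0129), a call lost without SNU449-Axl- control library 2 or 3 (limma adjusted p = 0.119 and 0.0939) or resistant library 1 or 2 (limma adjusted p = 0.062 and 0.122). Without SNU449 control library 3 the higher level with loss of Axl was 1.95. COL1A1 is also 1 of the 5 fibroblast or stellate cell markers in the table, whose summed values ranged from 166 to 582, 525 to 1010, 638 to 2608 and 263 to 412 in the same order of groups, and DCN and DES were not in the table. The samples are cultures of SNU449 or its derivative, so these marker names do not stand for fibroblasts or stellate cells in them. TAGLN, an actin-binding protein of smooth muscle, had 111, 205 and 21 in SNU449 control cells and 590, 330 and 1081 in Rego-resistant SNU449. Its rise of 2.90 (limma adjusted p = 0.00844) became 1.66 without SNU449 control library 3 and was not called without library 3 of Rego-resistant SNU449 (2.33, limma adjusted p = 0.0786). In SNU449 control library 3 CALD1 (92), CCN2 (72), MYL9 (223) and TGFBI (906) were also lower than in libraries 1 and 2, whereas FN1 (2923) was highest there. Without this library 14 markers were called with Rego resistance in SNU449, the same number as with it, but CALD1 was no longer called (0.75, limma adjusted p = 0.143). S100A4, a calcium-binding protein, rose in both backgrounds, by 1.74 in SNU449 (limma adjusted p = 8.19e-05) and by 1.77 in SNU449-Axl- (limma adjusted p = 0.000153). CDH2, or N-cadherin, which replaces E-cadherin in EMT, ranged from 209 to 778 over the 12 libraries.

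**Figure D4:**
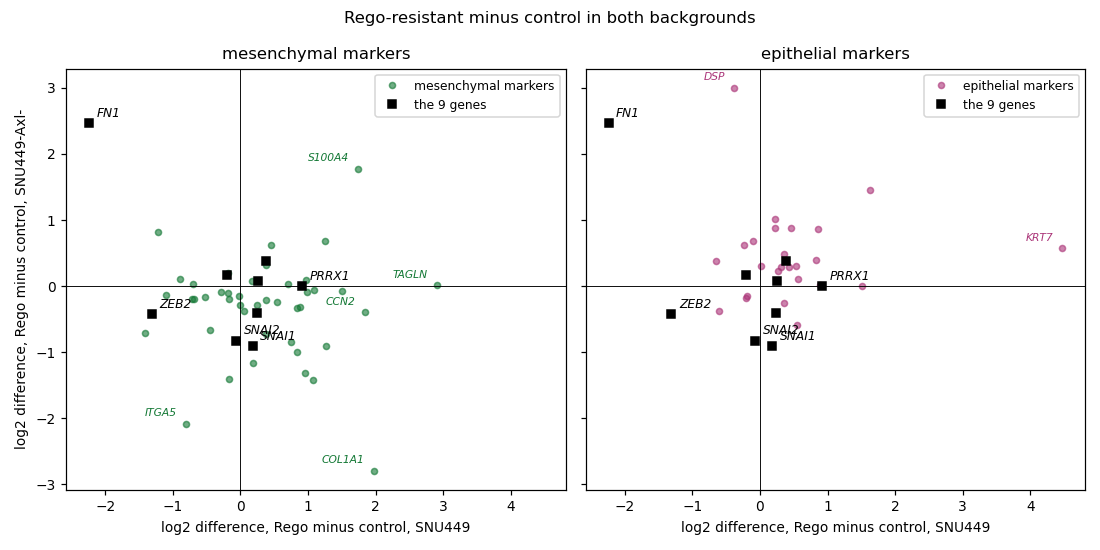
Differences between Rego-resistant and control cells in SNU449 (horizontal) and SNU449-Axl- (vertical), both on the log2(library value + 1) scale, for 43 mesenchymal (left) and 25 epithelial markers (right), with the 9 genes as black squares. FN1 lies at -2.24 and 2.47, opposite to COL1A1. The epithelial points have medians of 0.35 (horizontal) and 0.31 (vertical), beside -1e-04 and 0.0066 over all genes.

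Epithelial markers, the genes that EMT factors repress, were few in these cells, with 25 of 49 listed in the table and neither CDH1 (E-cadherin) nor EPCAM among them. All calls in the 4 main comparisons were higher values: 4 with Rego in SNU449, 5 with Rego in SNU449-Axl-, and 5 each with loss of Axl in control and in resistant cells. The same held when libraries were scaled to the upper quartile or centred on the spike-in RNAs. Without such scaling the calls were 16%, 20%, 20% and 20% of the 25, against 7.81%, 4.35%, 7.45% and 4.37% of all genes. In SNU449-Axl- the 5 calls with Rego became 3 without control library 1 or 3 or resistant library 2, and the 5 with loss of Axl in control cells became 2 without library 2 of either group. Rego-resistant SNU449-Axl- had 11 of 25 (44%) above SNU449 control cells and none below, against 4.38% of all genes higher and 2.74% lower. In that comparison 61.5% of the calls over all genes were higher, and 91.2% with centring on the spike-in RNAs. KRT7, a keratin of simple epithelia, had 37, 27 and 18 in SNU449 control cells and 695, 354 and 897 in Rego-resistant SNU449. This was a rise of 4.47 (limma adjusted p = 2.5e-06). SNU449-Axl- cells had 181, 820 and 303 as control cells and 636, 377 and 617 when resistant, which overlapped. KRT7 was thus low in SNU449 control cells alone, and it was also called higher with loss of Axl in control cells. The difference of its Rego effect between backgrounds was called too. DSP, which encodes the desmosomal protein desmoplakin, had 203, 221 and 237 in Rego-resistant SNU449-Axl- and between 22 and 50 in all other libraries. It rose by 3.0 with Rego in SNU449-Axl- (limma adjusted p = 1.33e-06) and differed in its Rego effect between backgrounds by -3.38 (limma adjusted p = 1.83e-05). PPL, the cornified envelope protein periplakin, rose with Rego in both backgrounds, by 1.63 (limma adjusted p = 0.00062) and by 1.45 (limma adjusted p = 0.00338).

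**Figure D5:**
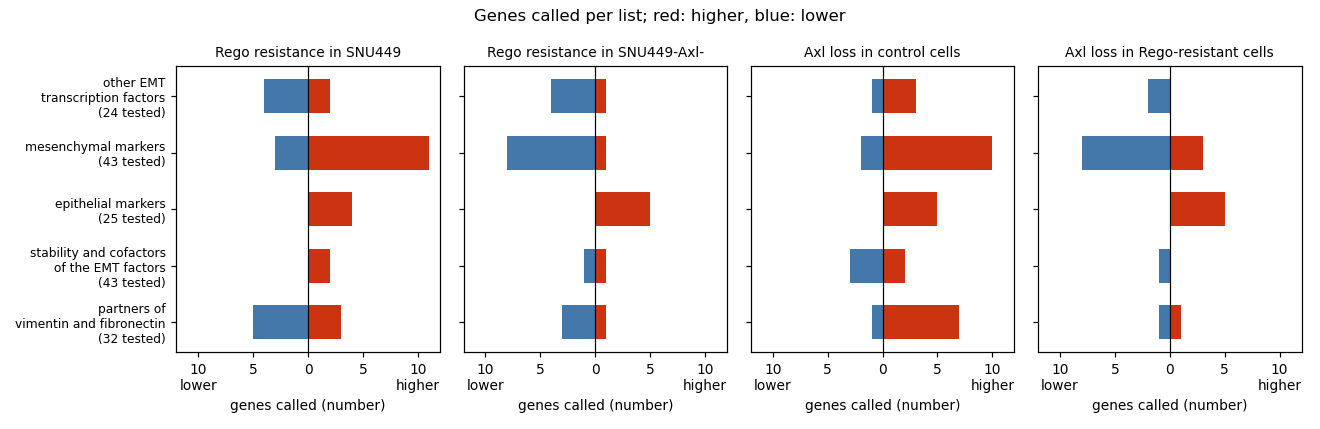
Number of genes called higher (red, to the right) and lower (blue, to the left) in each of 5 gene lists for the 4 main comparisons, with the number of genes tested per list. Mesenchymal markers have 11 higher and 3 lower with Rego in SNU449 but 1 higher and 8 lower in SNU449-Axl-, and epithelial markers are called higher only. Over all genes 7.81%, 4.35%, 7.45% and 4.37% were called in the panels from left to right.

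Of 45 genes that set the stability of the EMT factors or act as their cofactors, 43 were in the table. With Rego resistance 2 were called in SNU449 (both higher) and 2 in SNU449-Axl- (1 higher, 1 lower). Loss of Axl gave 5 in control cells (2 higher, 3 lower) and 1 in resistant cells (lower). In this order the calls were 4.65%, 4.65%, 11.6% and 2.33% of the 43, against 7.81%, 4.35%, 7.45% and 4.37% of all genes. With centring on the spike-in RNAs the counts for loss of Axl were 3 higher and 1 lower in control cells and 5 higher and 1 lower in resistant cells, and those for Rego resistance were 2 higher and 1 lower in each background. Without 1 library those for Rego resistance ranged from 1 to 3 in SNU449, lowest without control library 2 or resistant library 3, and from 0 to 2 in SNU449-Axl-, with 0 without library 2 of either group. SMARCA4, the chromatin remodeller BRG1 that ZEB1 can recruit, had 995, 925 and 801 in SNU449 control cells and 1615, 1696 and 1675 in Rego-resistant SNU449, and 1384, 1534 and 1628 in SNU449-Axl- control cells and 858, 793 and 875 when resistant. It rose by 0.88 with Rego in SNU449 (limma adjusted p = 0.00352), fell by 0.85 in SNU449-Axl- (limma adjusted p = 0.00838, not called without library 2 of either of its groups), and these effects differed by 1.72 (limma adjusted p = 0.000365). FBXW7, a substrate receptor of a ubiquitin ligase that targets SNAI1 and ZEB2 among others, was lower by -1.25 with loss of Axl in control cells (limma adjusted p = 0.000532). GSK3B, the kinase that marks SNAI1 for degradation, rose by 0.82 with Rego in SNU449 (limma adjusted p = 0.0107), a call lost without SNU449 control library 2 or 3 or resistant library 3. The 5 calls with loss of Axl in control cells became 1 without SNU449-Axl- control library 2.

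Partners of vimentin and fibronectin, mainly other intermediate filament proteins, integrins and matrix proteins, formed a list of 41 genes with 32 in the table, some of them shared with the mesenchymal markers. Rego resistance gave 8 calls in SNU449 (3 higher, 5 lower) and 4 in SNU449-Axl- (1 higher, 3 lower), and loss of Axl gave 8 in control cells (7 higher, 1 lower) and 2 in resistant cells (1 each way). In this order the calls were 25%, 12.5%, 25% and 6.25% of the 32, against 7.81%, 4.35%, 7.45% and 4.37% of all genes. The 8 calls in SNU449 became 4 without SNU449 control library 2 and 5 without library 3, and the 8 with loss of Axl became 4 without SNU449-Axl- control library 2. Without 1 library the 4 calls in SNU449-Axl- ranged from 2 to 6, lowest without control library 3 or resistant library 2, and the 2 in resistant cells from 0 to 4, with 0 without library 2 of Rego-resistant SNU449-Axl-, and the latter were 3 higher and none lower with centring on the spike-in RNAs. ITGA5, which with ITGB1 forms the main fibronectin receptor, had 105, 101 and 77 in SNU449-Axl- control cells and 21, 19 and 24 in Rego-resistant SNU449-Axl-. ITGA5 fell by 2.09 there (limma adjusted p = 5.98e-06), in the comparison in which FN1 rose, and its resistant values lay near the floor. In SNU449 it had 65, 81 and 74 in control cells and 43, 38 and 43 when resistant. It was thus also lower without overlap in the comparison in which FN1 fell. ITGB3, a subunit of the vitronectin and fibronectin receptor, fell with Rego in both backgrounds, by 1.70 (limma adjusted p = 0.000131) and by 1.16 (limma adjusted p = 0.00715, not called without SNU449-Axl- control library 3 or resistant library 2). SDC2, a heparan sulfate proteoglycan that binds fibronectin, rose in both, by 3.37 (limma adjusted p = 2.04e-07) and by 2.16 (limma adjusted p = 0.000119). NES, or nestin, which assembles with vimentin, was higher by 1.08 in Rego-resistant SNU449-Axl- than in Rego-resistant SNU449 (limma adjusted p = 0.00852, not called without library 2 of the former).

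The genes whose levels followed a member most closely over the 12 libraries were read from 8189 genes with a mean normalized count of at least 50, as descriptions over 4 groups of technical triplicates. FN1 was followed by AKR1C2 (Pearson r of 0.97), AKR1C3 (0.96) and PPP4R3B (0.94). AKR1C2 and AKR1C3 belong to the same family of aldo-keto reductase genes, and how reads matching several such related genes were counted is not stated. ZEB2 was followed by CUL4B (0.98), a scaffold of ubiquitin ligases, TGFBRAP1 (0.96) and B3GALT5-AS1 (0.96). For SNAI1 the gene was HMGB3 (0.97), for SNAI2 SCNM1 (0.93), for PRRX1 MUL1 (0.96), for ZEB1 PHF3 (0.92), for TWIST1 CCNL1 (0.94) and for TWIST2 CCDC181 (0.89). None of these was another of the 9 genes.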

How the data were processed

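PolyA-trimmed QuantSeq 3′ reads (cutadapt 4.0) were aligned by the authors to GRCh38 and spike-in sequences with STAR 2.5.3a, allowing multiple hits, and counted per gene with GENCODE 40. The deposited library values are a score: DESeq2 variance-stabilised values, corrected by the authors for preparation date, raised to powers of 2 and rounded. The mean normalized count deposited per table is a signal averaged over its libraries. Columns with the authors' own fold changes and p-values were not used.

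The 12 libraries (3 in each of 4 groups) were analysed in 1 table with limma 3.58.1 in R 4.3.3, on log2(value + 1) over 15601 genes (spike-in RNAs left out; no gene fell below the minimum mean of 5), using lmFit and eBayes with a trend and the Benjamini-Hochberg adjustment. The replicate number was kept as a block because the removed preparation effect followed it: the median absolute deviation of a replicate number's mean was 0.00126 in this table, against 0.122 for a library. The labels do not give preparation dates. Group mean counts were solved from the mean counts of up to 7 tables (median error 0.393% over 1288 genes). The fit was tested on simulated data. Members and gene lists were chosen with earlier results of these data known. Besides the 9 members and AXL, up to 4 called genes with the largest difference per list and comparison, the 3 genes most correlated with each member, and antisense RNAs of the members' loci were open to naming; the genes most correlated with VIM are not reported here. CDH2, CDH1, EPCAM, ALB, DCN and DES were named after their values were seen. Other 12-library and 2-group tables, pseudocounts, filters, scalings, fits without trend or block and fits without each library were tried.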

Additional observations from a re-analysis of the deposited data

Results flagged for a closer look

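2 results differed between the backgrounds by a test of the difference itself. The Rego effect on FN1 differed between SNU449 and SNU449-Axl- by -4.71 (limma adjusted p = 3.44e-05), with all 3 resistant libraries below the control libraries in SNU449 and all 3 above them in SNU449-Axl-. The call held in all 12 fits that left out 1 library and in the 9 other alternatives. The Rego effect on SNAI1 differed by 1.08 (limma adjusted p = 0.0406), with overlapping groups in SNU449 and all 3 resistant libraries lower in SNU449-Axl-, and the call was lost in 9 of the 12 fits. Groups of 3 libraries are too small for the outlier test used for larger groups, which was not run.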

How the results depend on the processing

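Fits without the replicate block called more genes, 2175, 1552, 2182 and 1503 in the 4 main comparisons (Rego resistance in SNU449 and in SNU449-Axl-, loss of Axl in control and in resistant cells) against 1219, 678, 1163 and 682 with it. They called 1979 against 1110 for resistant SNU449-Axl- against SNU449 control cells, 1948 against 872 for resistant SNU449 against SNU449-Axl- control cells and 1826 against 916 for the difference of the Rego effect. For this difference SNAI1, ZEB2 and FN1 were then called. PRRX1 is not counted among the members here, since its presence in the table rests on Rego-resistant SNU449. Whether replicate numbers pair the samples could not be read, since the effect that follows the number had been removed. Tables of 2 groups, which do not exist for the difference of the Rego effect, called 2947, 3566, 3750, 4024, 3542 and 3332 genes without the block (and 5 members with loss of Axl in resistant cells and 2 in resistant SNU449-Axl- against SNU449 control cells). With the block they called 603 genes for Rego in SNU449, 603 and 1160 for loss of Axl, and 430 for resistant SNU449 against SNU449-Axl- control cells.

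A minimum mean count of 50, which removes SNAI1, SNAI2 and PRRX1 from the test, gave 746 genes for Rego in SNU449, 450 for loss of Axl in resistant cells and 622 for resistant SNU449-Axl- against SNU449 control cells, and left 1 member called in each comparison but Rego in SNU449. Centring on the spike-in RNAs gave 2326 genes for loss of Axl in resistant cells and 2062 for resistant SNU449-Axl- against SNU449 control cells. For the latter comparison, that of resistant SNU449 with SNU449-Axl- control cells and the difference of the Rego effect, it moved the median of all genes to 0.25, -0.18 and -0.19 and the share of higher calls from 61.5% to 91.2%, from 47.9% to 13.7% and from 50.3% to 26%. With loss of Axl in control cells 1 member was called under upper-quartile scaling, in the other table over all 12 libraries and in the table of 2 groups with the block. Why these counts moved was not tested.

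Leaving out 1 library gave 740 to 1299, 205 to 891, 540 to 1275, 219 to 826, 576 to 1226, 337 to 1108 and 523 to 922 genes in the order above. With PRRX1 included, 3 to 3, 1 to 3, 1 to 2, 1 to 3, 0 to 1, 0 to 3 and 1 to 2 members were called. PRRX1 was given no test, so the 3 to 3 for Rego in SNU449 rests on ZEB2 and FN1 alone. Without PRRX1 the fit to all 12 libraries called 2, 3, 2, 1, 1, 2 and 2 of the 8 genes. No called member reversed. Uncalled members that changed sign with centring on the spike-in RNAs were ZEB1 (0.071) with loss of Axl in control cells, SNAI2 (0.29) and ZEB1 (0.25) in resistant cells, SNAI1 (0.071), SNAI2 (0.16) and VIM (0.11) in resistant SNU449-Axl- against SNU449 control cells, and FN1 (-0.18) and TWIST2 (-0.12) in resistant SNU449 against SNU449-Axl- control cells. The difference of the Rego effect on ZEB1 was 0.0006 in the other table over all libraries. Without 1 library, signs changed for Rego in SNU449 in SNAI2 (-0.36 to 0.16), TWIST1 (-0.53 to 0.12) and VIM (-0.011 to 0.61), and in SNU449-Axl- in TWIST1 (-0.023 to 0.46) and TWIST2 (-0.041 to 0.16). They changed with loss of Axl for ZEB1 in control cells (-0.43 to 0.23), and in resistant cells for SNAI2 (-0.30 to 0.14), TWIST2 (-0.15 to 0.11) and ZEB1 (-0.18 to 0.12). For resistant SNU449-Axl- against SNU449 control cells FN1 (-0.39 to 0.84), SNAI2 (-0.38 to 0.14) and VIM (-0.37 to 0.11) did so, for resistant SNU449 against SNU449-Axl- control cells FN1 (-0.32 to 0.31), TWIST2 (-0.056 to 0.23) and VIM (-0.28 to 0.34), and for the difference of the Rego effect ZEB1 (-0.37 to 0.28). Without read totals per library the precision of SNAI1, SNAI2 and PRRX1 cannot be stated.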
